A study of Mus musculus with 9 samples.

Results

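The genes described here are 8 genes that mark oculomotor and other cholinergic motor neurons: *Isl1*, *Phox2a*, *Chat*, *Slc18a3*, *Slc5a7*, *Slc10a4*, *Prph* and *Tbx20*. They were chosen by name and found by their Ensembl identifiers, and they are 8 of the 51912 genes in the deposited table. RNA was sequenced from dissected midbrains of C57Bl/6 mouse embryos at stage E14.5, in mid-gestation. In total, 9 libraries were made, 3 each from *Nkx2.9*+/+ embryos, *Nkx2.9*LacZ/+ embryos with 1 targeted allele and *Nkx2.9*LacZ/LacZ embryos with 2 targeted alleles. In the targeted allele LacZ replaces the first exon of *Nkx2.9*, an NK homeobox gene, and the deletion is present in the whole embryo. Each library pooled the cDNA of 2 midbrains, so that no value belongs to a single embryo. The columns of the table carry a genotype but no replicate number, and libraries are therefore named by column: columns 1 to 3 are labelled *Nkx2.9*LacZ/LacZ, columns 4 to 6 *Nkx2.9*LacZ/+ and columns 7 to 9 *Nkx2.9*+/+.

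The oculomotor nucleus lies in the ventral midbrain and moves most of the muscles of the eye. Its neurons, like all motor neurons, release acetylcholine at the muscle. *Phox2a* encodes a homeodomain factor without which the oculomotor and trochlear nuclei do not form, and *Isl1* encodes a LIM homeodomain factor of motor neurons that is also used by other neurons. Acetylcholine is made by choline acetyltransferase (*Chat*), is loaded into vesicles by the vesicular acetylcholine transporter (*Slc18a3*), and its choline is taken up again by the high-affinity choline transporter (*Slc5a7*). *Slc10a4* encodes a vesicle protein of cholinergic and monoaminergic neurons, *Prph* encodes peripherin, an intermediate filament of neurons that project out of the central nervous system, and *Tbx20* encodes a T-box factor of cranial motor neurons and of the heart.

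Reads on genes ranged from 1692963 in column 7 to 5942192 in column 8, with a median of 4921748. All values below are normalized counts, which are reads divided by a size factor for the library, and 1 read was worth between 0.702 (column 8) and 2.59 (column 7) normalized counts. Column 4 stood furthest from the others: the log2 deviations of its genes from the median library had an SD of 0.415, against 0.308 in column 7 and 0.180 to 0.253 in the other 7 libraries. *Xist*, which female cells express, was uneven over the genotypes. It had 6155, 5037 and 6034 reads in columns 1 to 3 and 49, 17 and 3590 in columns 4 to 6. In columns 7 to 9 it had 1679, 3676 and 64. Columns 4, 5 and 9, low in *Xist*, were the highest in *Slc18a3*, and columns 4 and 9, but not 5, the lowest in *Isl1*. The sex of the embryos is not given in the sources used here. Its part in the differences between genotypes was not tested. *Nkx2.9* itself had 4, 6 and 3 reads in columns 1 to 3, 0, 7 and 4 in columns 4 to 6, and 0, 2 and 2 in columns 7 to 9. The targeted gene thus had the most reads, 13, under the label *Nkx2.9*LacZ/LacZ, 11 under *Nkx2.9*LacZ/+ and the fewest, 4, under *Nkx2.9*+/+, which goes against the labels. The count covers the whole gene and the targeting removes its first exon alone, so reads can remain in the mutant. Which genotype each column holds is not settled by these data. Every direction below is one between libraries as labelled, and if the labels of columns 1 to 3 and 7 to 9 were exchanged, the directions between them would turn. Nothing in the labels says that the libraries of a genotype came from separate litters, so p-values measure the spread between these pools.

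The defining marker of the oculomotor nucleus was nearly undetected. *Phox2a* had 2 reads in column 9, which is 1.47 normalized counts, and 0 reads in the other 8 libraries. A count of 0 in a genotype allows a mean of up to 0.997 normalized counts in *Nkx2.9*LacZ/+ and 0.837 in *Nkx2.9*LacZ/LacZ, taking 3 reads over the group as the limit and covering counting error only. *Phox2a* (ENSMUSG00000007946, chromosome 7, 101818313 to 101822726, plus strand, GRCm38) shares 95 exonic bases with *Inppl1* on the other strand, which had 906 reads over the 9 libraries, so even these 2 reads cannot be assigned with certainty. *Chat*, which defines a cholinergic neuron, had 16 reads in all. The data thus do not show an oculomotor population by its defining marker, and the 8 genes are described below as genes and not as a cell type. In whole midbrain tissue, fewer cells of a type and less RNA per cell cannot be told apart.

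The cholinergic gene locus is shown first, because *Chat* and *Slc18a3* lie in it together and yet differed in level. *Chat* (ENSMUSG00000021919) spans 32408203 to 32465989 on the minus strand of chromosome 14, and the single-exon gene *Slc18a3* (ENSMUSG00000100241, 32462438 to 32464850) lies on the same strand inside an intron of 4 of the 8 annotated *Chat* transcripts. Their exons share 0 bases. *Slc5a7* (ENSMUSG00000023945, chromosome 17, 54273590 to 54299034, minus strand) is the third gene of acetylcholine supply. The bases just before their transcription starts are printed from RefSeq (GRCm38.p6), 5′ to 3′ on the minus strand, with capitals marking TAAT or its reverse complement ATTA, the core that homeodomain factors such as Isl1 and Phox2a read. The window of *Slc18a3* (chr14:32464851-32465100) lies within the *Chat* gene, that of *Slc5a7* is chr17:54299035-54299284, and for *Chat* the 170 bases before its outermost annotated start are given (chr14:32465990-32466159).
Chat: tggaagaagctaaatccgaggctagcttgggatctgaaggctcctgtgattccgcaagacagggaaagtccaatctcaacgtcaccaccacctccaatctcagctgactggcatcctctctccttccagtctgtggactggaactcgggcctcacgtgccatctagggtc
Slc18a3: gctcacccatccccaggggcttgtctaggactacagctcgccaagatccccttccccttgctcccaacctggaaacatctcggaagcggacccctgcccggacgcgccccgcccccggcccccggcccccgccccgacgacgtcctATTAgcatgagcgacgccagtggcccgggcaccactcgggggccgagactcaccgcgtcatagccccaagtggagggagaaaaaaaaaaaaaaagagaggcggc
Slc5a7: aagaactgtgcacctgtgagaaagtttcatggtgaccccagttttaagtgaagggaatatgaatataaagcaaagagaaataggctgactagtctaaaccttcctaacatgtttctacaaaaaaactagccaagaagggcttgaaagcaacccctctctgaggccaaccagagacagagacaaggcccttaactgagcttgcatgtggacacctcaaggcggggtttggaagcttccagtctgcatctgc
All 8 genes were found in the RefSeq promoter set. Over the 250 bases before each RefSeq start, both strands counted, TAAT was present 2 times for *Isl1* and *Slc10a4*, 1 time for *Slc18a3* and *Tbx20*, and 0 times for *Chat*, *Slc5a7*, *Phox2a* and *Prph*. Of 32851 mouse promoter windows of the same length, 54.9% hold this core, so that its presence in 4 of the 8 is no distinguishing feature. The TATA box letters TATAAA were found 1 time each for *Slc5a7* and *Prph* (12.4% of all windows), and the E-box letters CANNTG were found in 5 of the 8 (66.2% of all windows), most often for *Slc5a7*, with 3 matches. The window of *Slc18a3* was 66% G and C, that of *Chat* 54.8% and that of *Slc5a7* 45.6%.

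**Figure D1:**
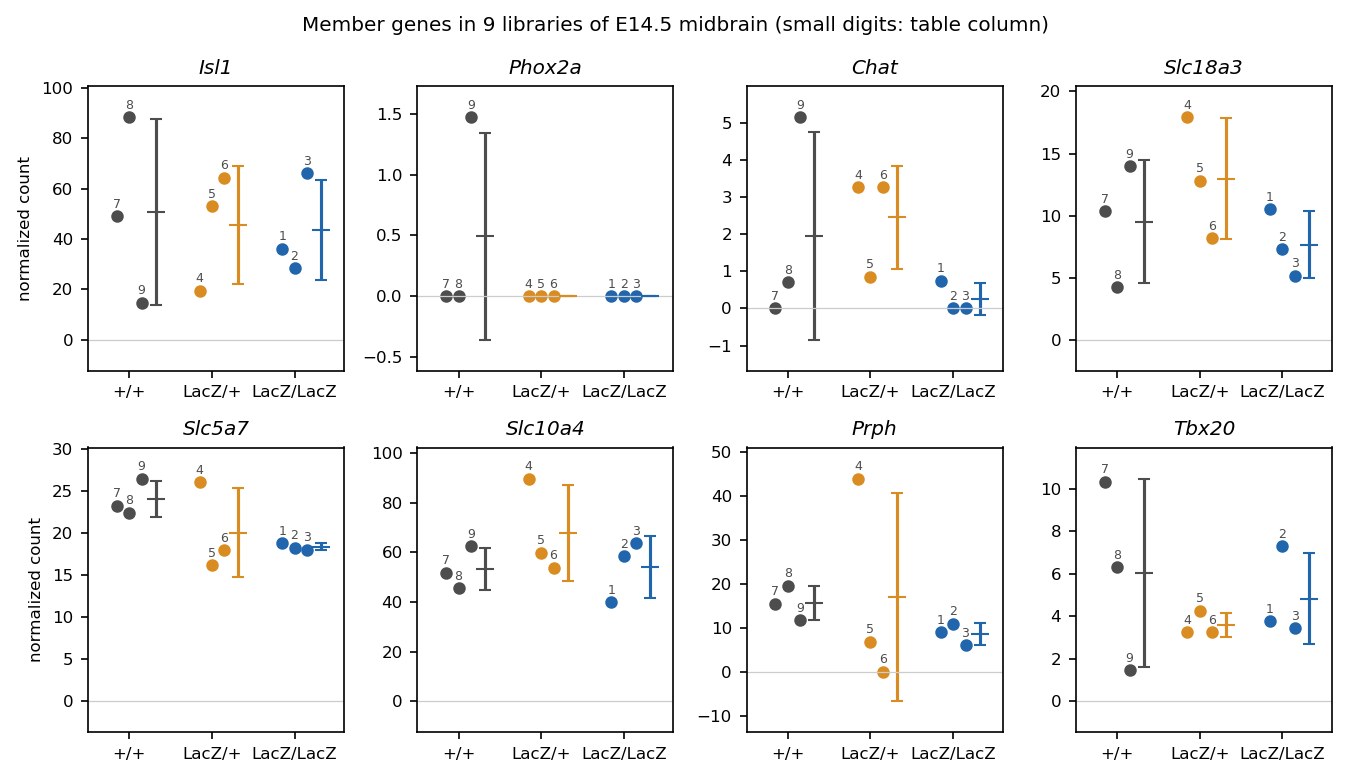
Normalized counts of the 8 genes in each of the 9 libraries (points, with the table column as a small digit) by labelled *Nkx2.9* genotype, with the mean and SD of 3 libraries beside them. The libraries of each genotype are widely spread for *Isl1*, column 4 stands apart for *Prph*, and *Phox2a* is above 0 in column 9 alone.

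*Isl1* varied widely between libraries of the same genotype. *Isl1* (ENSMUSG00000042258, chromosome 13, 116298281 to 116309689, minus strand) had 36.1, 28.4 and 66.1 normalized counts in columns 1 to 3 (*Nkx2.9*LacZ/LacZ). Its values were 19.6, 52.9 and 64.5 in *Nkx2.9*LacZ/+ and 49.1, 88.4 and 14.7 in *Nkx2.9*+/+. The lowest and the highest library, columns 9 and 8, thus carry the same wild type label, 6.01-fold apart, and the 3 genotypes overlap over most of their range. The means were 50.8 ± 36.9 in *Nkx2.9*+/+, 45.6 ± 23.3 in *Nkx2.9*LacZ/+ and 43.5 ± 19.9 in *Nkx2.9*LacZ/LacZ (SD, n = 3 each). The log2 fold change in *Nkx2.9*LacZ/LacZ against *Nkx2.9*+/+ was 0.02 in limma (95% interval -1.12 to 1.16, adjusted p = 1.00), against the order of the means. It was -0.23 in both edgeR and DESeq2, and in limma -0.68 without column 9 and 0.58 without column 8, so the direction is not settled. An interval of this width leaves more than a doubling in either direction undetected. The SD of *Isl1* within genotypes was 0.968 on the log2 scale, and 94.2% of the 16993 genes tested had a smaller one, their median being 0.289. The scatter of *Isl1* over the 9 libraries was 14.6 times that of Poisson counts, against a median of 2.59 times over the genes tested.

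*Tbx20* (ENSMUSG00000031965, chromosome 9, 24718138 to 24774303, minus strand) was low in every library. It had 43 reads in all, 2 to 9 per library, and a mean of 4.83 normalized counts, just under the minimum of 5 used for testing. Its values were 3.76, 7.32 and 3.44 in *Nkx2.9*LacZ/LacZ, 3.26, 4.27 and 3.26 in *Nkx2.9*LacZ/+, and 10.3, 6.32 and 1.47 in *Nkx2.9*+/+. The wild type libraries hold both its highest and its lowest value, and its scatter, 1.25 times that of Poisson counts, is little more than counting error. Against *Nkx2.9*+/+, the log2 fold change was -0.07 in *Nkx2.9*LacZ/LacZ (95% interval -1.61 to 1.46, limma fit without a minimum).

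Of the genes of acetylcholine supply, *Slc5a7* was the most even and *Chat* the scarcest. *Slc5a7* had 18.8, 18.3 and 18.04 normalized counts in *Nkx2.9*LacZ/LacZ, 26.1, 16.2 and 17.9 in *Nkx2.9*LacZ/+, and 23.3, 22.5 and 26.5 in *Nkx2.9*+/+. The 3 wild type libraries all lie above the 3 labelled *Nkx2.9*LacZ/LacZ, while *Nkx2.9*LacZ/+ spans both. The log2 fold change in *Nkx2.9*LacZ/LacZ against *Nkx2.9*+/+ was -0.37 ± 0.31 (SE, 95% interval -1.04 to 0.30), with an unadjusted p of 0.259 and an adjusted p of 1.00 in limma. The exact permutation test gave p = 0.1, two-sided, the smallest that 3 libraries against 3 allow. With 9 to 36 reads per library, its scatter of 0.744 times that of Poisson counts leaves no spread beyond counting error to be seen.

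*Slc18a3* had 10.5, 7.32 and 5.15 normalized counts in *Nkx2.9*LacZ/LacZ, 17.9, 12.8 and 8.16 in *Nkx2.9*LacZ/+, and 10.3, 4.21 and 13.99 in *Nkx2.9*+/+. All 3 genotypes overlap, from 4 to 19 reads per library. Its log2 fold change was -0.20 in *Nkx2.9*LacZ/LacZ (95% interval -1.31 to 0.92) and 0.48 in *Nkx2.9*LacZ/+ (95% interval -0.64 to 1.59), each against *Nkx2.9*+/+. Neither passed the test, with adjusted p = 1.00 for both in limma.

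*Chat* had 1, 0 and 0 reads in *Nkx2.9*LacZ/LacZ, 2, 1 and 4 in *Nkx2.9*LacZ/+, and 0, 1 and 7 in *Nkx2.9*+/+. In normalized counts these are 0.753, 0 and 0, then 3.26, 0.854 and 3.26, then 0, 0.702 and 5.15. A single wild type library, column 9, holds 7 of the 8 wild type reads, and the *Nkx2.9*+/+ and *Nkx2.9*LacZ/LacZ libraries overlap. The rate of reads in *Nkx2.9*LacZ/LacZ over *Nkx2.9*+/+ was 0.111 (1 read against 8, exact 95% counting interval 0.00249 to 0.824), an interval that leaves out the spread between libraries. On the log2 scale the difference was -0.86 (95% interval -2.29 to 0.57, limma fit without a minimum), and without column 9 it was -0.11. The 3 *Nkx2.9*LacZ/+ libraries lay above the 3 *Nkx2.9*LacZ/LacZ libraries, by as little as 0.854 against 0.753. That difference was -1.42 (95% interval -2.85 to 0.0060), with an unadjusted p of 0.0509 and an adjusted p of 0.963 in limma, and p = 0.1 in the exact permutation test. The rate of reads was 0.120 (1 read against 7, exact 95% counting interval 0.00266 to 0.933), again without the spread between libraries. The log2 fold change was -2.69 in edgeR (unadjusted p = 0.0949) and -3.01 in DESeq2 (unadjusted p = 0.111). In limma its unadjusted p was 0.0485 without column 1, 0.0288 without column 5 and 0.0344 with these 6 libraries alone. Without column 2, 3, 4 or 6 the unadjusted limma p was higher than with all libraries, at 0.134, 0.134, 0.118 and 0.123. With pseudocounts of 0.5 and 5 it was 0.0553 and 0.0614. The lower *Chat* reads in *Nkx2.9*LacZ/LacZ than in *Nkx2.9*LacZ/+ thus had the same sign with each tool and did not pass an adjusted threshold with any.

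*Slc10a4* (ENSMUSG00000029219, chromosome 5, 73006883 to 73012955, plus strand) had the most reads of the 8 genes, 552. Its values were 39.9, 58.5 and 63.6 normalized counts in *Nkx2.9*LacZ/LacZ, 89.6, 59.8 and 53.8 in *Nkx2.9*LacZ/+, and 51.7, 45.6 and 62.6 in *Nkx2.9*+/+. Column 4 is highest and the 3 genotypes overlap. The means were 53.99 ± 12.5 in *Nkx2.9*LacZ/LacZ and 53.3 ± 8.59 in *Nkx2.9*+/+ (SD, n = 3 each), and the log2 fold change between them was 0.0029 (95% interval -0.54 to 0.54, limma). This was the narrowest interval among the 7 genes with a fold change in that comparison. The mean of *Nkx2.9*LacZ/+ was 67.7 with column 4 and 56.8 without it.

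*Prph* (ENSMUSG00000023484, chromosome 15, 99055174 to 99058978, plus strand) rested on 1 library in *Nkx2.9*LacZ/+. It had 9.03, 10.98 and 6.01 normalized counts in *Nkx2.9*LacZ/LacZ, 44.0, 6.83 and 0 in *Nkx2.9*LacZ/+, and 15.5, 19.6 and 11.8 in *Nkx2.9*+/+. *Nkx2.9*LacZ/+ thus holds both the highest library, column 4 with 27 reads, and the lowest, column 6 with 0 reads. The wild type libraries all lay above those labelled *Nkx2.9*LacZ/LacZ, with a log2 fold change of -0.79 ± 0.92 (SE, 95% interval -2.75 to 1.17). This did not pass the test, with an unadjusted p of 0.404 in limma and p = 0.1 in the exact permutation test. For *Nkx2.9*LacZ/+ against *Nkx2.9*+/+ the log2 fold change was -1.21 (95% interval -3.17 to 0.75). The means ran the other way (16.9 ± 23.7 against 15.6 ± 3.94, SD, n = 3 each), and the estimate was -0.15 in edgeR and 0.085 in DESeq2, so the direction is not settled. Without column 4 it was -2.55 with an unadjusted p of 0.00299 and an adjusted p of 0.844 in limma, and without column 6 it was 0.20.

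**Figure D2:**
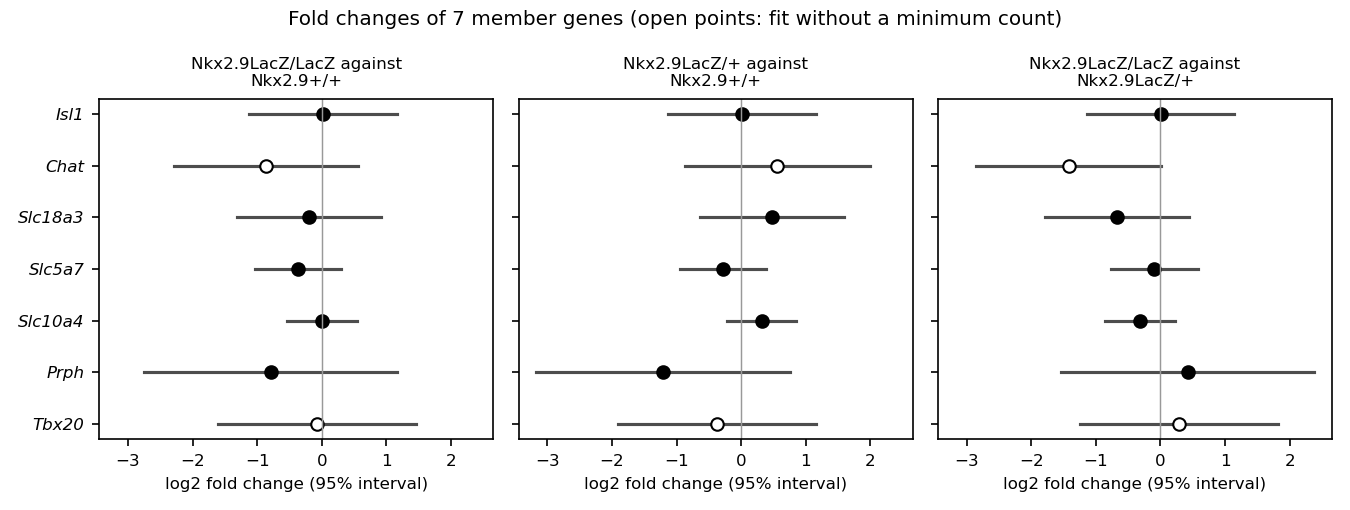
Log2 fold changes of 7 of the genes with 95% intervals from limma (open points: *Chat* and *Tbx20*, from the fit without a minimum count) in the 3 comparisons between labelled genotypes. All intervals cross 0, and that of *Chat* in *Nkx2.9*LacZ/LacZ against *Nkx2.9*LacZ/+ ends at 0.0060.

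Of the 8 genes, 5 passed the minimum mean of 5 normalized counts (*Isl1*, *Slc18a3*, *Slc5a7*, *Slc10a4* and *Prph*) and 3 did not (*Phox2a*, *Chat* and *Tbx20*). In *Nkx2.9*LacZ/LacZ against *Nkx2.9*+/+, 0 of these 5 had an unadjusted p under 0.05 in limma, where 2.6% of all 16993 genes tested did, and 0 had an adjusted p under 0.05, as for all genes (0%). The values of 2 of the 5, *Slc5a7* and *Prph*, did not overlap between these genotypes, where 9.52% of all genes did not, and with 5 genes the count is a description. For *Nkx2.9*LacZ/+ against *Nkx2.9*+/+, 0 of the 5 passed an unadjusted p under 0.05 (2.78% of all genes), 0 an adjusted p (0%) and 0 did not overlap (6.91%). For *Nkx2.9*LacZ/LacZ against *Nkx2.9*LacZ/+ the counts were again 0 (2.64% of all genes), 0 (0%) and 0 (8.71%). The unadjusted counts over all genes were 441, 473 and 449 in limma, 421, 372 and 451 in edgeR, and 316, 264 and 323 in DESeq2, in that order of comparisons. With adjustment DESeq2 called 1 gene, *Gm23287* in *Nkx2.9*LacZ/+ against *Nkx2.9*+/+, and limma and edgeR called 0. The median log2 fold change of the 5 genes was -0.20, 0.01 and -0.09 in the 3 comparisons, beside 0.01, -0.0069 and 0.02 over all genes tested.

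The order of the genes by level can be given only per exon length. Per kilobase of exon, *Slc10a4* was highest with 27.7 ± 6.70 normalized counts (SD over 9 libraries), above *Isl1* in 8 of 9 libraries. *Isl1* followed with 11.8 ± 6.11, *Prph* with 6.88 ± 6.34, *Slc18a3* with 4.16 ± 1.82 and *Slc5a7* with 3.69 ± 0.675. Neighbours in this sequence, *Slc10a4* and *Isl1* included, overlap in their range. Within libraries, *Isl1* was above *Prph* in 7 of 9, *Prph* above *Slc18a3* in 7 and *Slc18a3* above *Slc5a7* in 6. The order of these neighbours was thus not the same in every library, and it was not tested. The ranges of *Slc5a7* (lowest 2.87) and *Tbx20* (highest 0.862) did not overlap, although *Prph* was at 0 in column 6. *Tbx20* averaged 0.402 ± 0.225 and *Chat* 0.330 ± 0.397, again overlapping, and *Phox2a* 0.0804. *Slc18a3* was above *Chat* per kilobase in 9 of 9 libraries, with a ratio of the means of 12.6, although both lie in 1 locus.

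**Figure D3:**
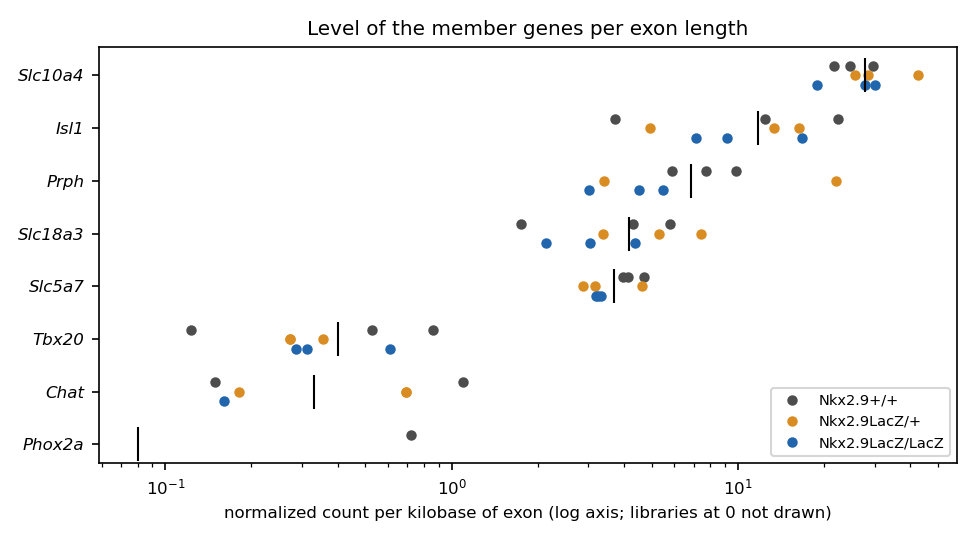
Normalized counts per kilobase of exon, on a log axis, of each gene in each library (points by labelled genotype, a black line for the mean over 9 libraries, libraries at 0 not drawn). *Slc10a4* leads, *Slc5a7* spans 2.87 to 4.70, and *Tbx20*, *Chat* and *Phox2a* lie below 1.10.

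No pair of the 8 genes varied together between libraries beyond the adjusted threshold, and the pairs with an unadjusted p under 0.05, over all libraries or within genotypes, are given as values. Over the 9 libraries, the log2 values of *Isl1* and *Slc18a3* had Pearson's r = -0.75 (exact permutation p = 0.0217, adjusted p = 0.303 over 28 pairs) and Spearman's rho = -0.77 (exact p = 0.0214, adjusted p = 0.200). Without the 2 libraries farthest from the median of *Isl1*, r was -0.53. With the genotype means subtracted and libraries permuted within their genotype (216 arrangements), r was -0.86 (exact permutation p = 0.0370, adjusted p = 0.346) and rho was -0.88 (exact permutation p = 0.0324, adjusted p = 0.454). *Slc18a3* was highest in columns 4 and 9, where *Isl1* was lowest. *Chat* and *Tbx20*, both under the minimum, had r = -0.78 (exact permutation p = 0.0115, adjusted p = 0.303) and rho = -0.80, with r = -0.57 without 2 libraries and -0.88 within genotypes (exact permutation p = 0.0370, adjusted p = 0.346), where rho was -0.77 (exact permutation p = 0.0556). *Slc5a7* and *Prph* had r = 0.63 (exact permutation p = 0.0485, adjusted p = 0.390) and rho = 0.82 (exact p = 0.0108, adjusted p = 0.200), with r = 0.54 without 2 libraries. Within genotypes r was 0.63 (exact permutation p = 0.639) and rho was 0.30 (exact permutation p = 0.620). *Isl1* and *Slc5a7* had r = -0.55 (exact permutation p = 0.125, adjusted p = 0.390) and rho = -0.58 over the 9 libraries, and r turned to 0.26 without the 2 libraries farthest from the median of *Isl1*. Within genotypes their r was -0.74 (exact permutation p = 0.0324, adjusted p = 0.346) and their rho was -0.77 (exact permutation p = 0.0185, adjusted p = 0.454). *Chat* and *Slc18a3*, the genes of the shared locus, had r = 0.56 (exact permutation p = 0.121). Of the 28 pairs, 16 had a positive r, 3 an unadjusted p under 0.05 for r and 0 an adjusted one over the 9 libraries.

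The 3 libraries lowest in *Isl1* were also the lowest in the *Dlx* genes, homeobox factors of forebrain GABAergic neurons picked with their values already in view. The summed normalized counts of *Dlx1*, *Dlx2*, *Dlx5* and *Dlx6* were 102, 17.4 and 86.7 in columns 1 to 3, 3.26, 96.5 and 121 in columns 4 to 6, and 75.0, 69.5 and 8.10 in columns 7 to 9. The 3 libraries lowest in this sum, columns 4, 9 and 2, are the 3 lowest in *Isl1*. The order of the others was not shared, since column 8, highest in *Isl1*, had a *Dlx* sum of 69.5, lower than all but these 3. *Gbx2*, another homeobox gene read beside them, was also lowest in columns 4, 9 and 2 (0, 12.5 and 19.2 normalized counts), but *Six3*, a forebrain homeobox gene, was not, with 161, 166 and 150 there and 93.9 to 184 over all libraries. Each genotype includes 1 of the 3 libraries, and the sums overlap between genotypes (8.10 to 75.0 in *Nkx2.9*+/+, 3.26 to 121 in *Nkx2.9*LacZ/+, 17.4 to 102 in *Nkx2.9*LacZ/LacZ). Their part in the spread of *Isl1* was not tested.

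*Prph* and *Slc10a4* were highest in column 4, the library with the most *Dbh* and *Slc6a2*. The sum of *Dbh* and *Slc6a2*, genes of noradrenaline synthesis and uptake, was 35.9 normalized counts in column 4 (22 reads) and between 0 and 4.52 in the other libraries. *Tfap2b*, the other gene read from the noradrenergic list, is also a gene of the dorsal midbrain and averaged 1832 normalized counts, and it was left out of this sum after its values were seen. It ran the other way, since column 4 was its lowest library (1258). With *Tfap2b*, the summed list was also lowest in column 4 (1294), and it ranged from 1741 to 2097 in *Nkx2.9*+/+, 1294 to 2361 in *Nkx2.9*LacZ/+ and 1563 to 2127 in *Nkx2.9*LacZ/LacZ. *Th*, the rate-limiting enzyme of dopamine and noradrenaline synthesis, was 187 in column 4 and 51.2 to 100 elsewhere. *Slc18a2*, the vesicle transporter that dopaminergic and noradrenergic neurons share, was instead lowest in column 4, with 91.3 against 107 to 155 elsewhere. The part of this library's makeup in *Prph* was not tested.

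**Figure D4:**
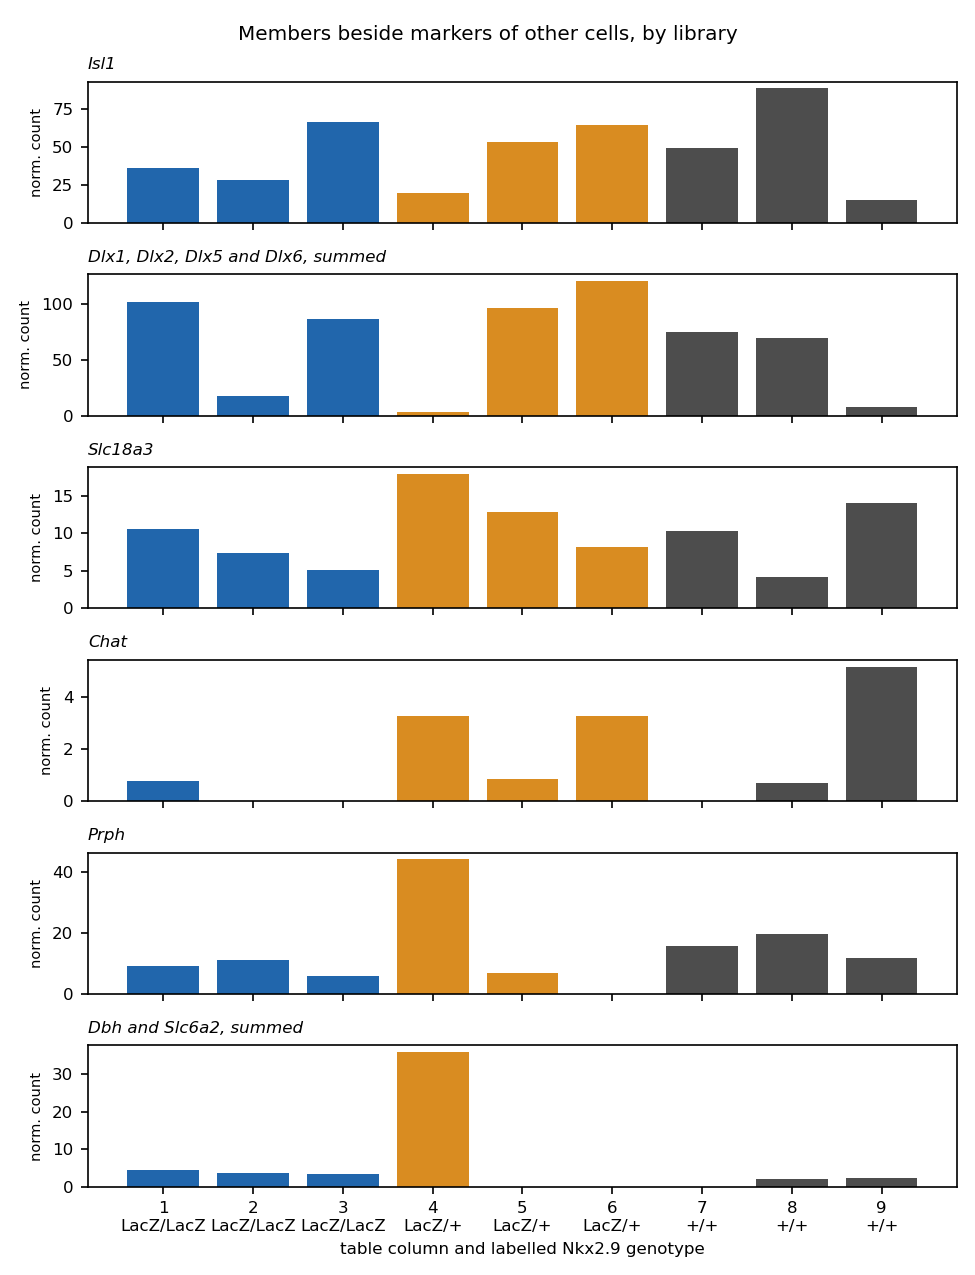
Normalized counts by library (bars, table columns 1 to 9 with their labelled genotype) of *Isl1*, the summed *Dlx* genes, *Slc18a3*, *Chat*, *Prph*, and the summed noradrenergic genes *Dbh* and *Slc6a2*. Columns 2, 4 and 9 are lowest in both *Isl1* and the *Dlx* sum, and column 4 is highest in *Prph* and in the sum of *Dbh* and *Slc6a2*.

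Other transcription factors of cranial and spinal motor neurons were mostly detected. Of 13 such factors, *Mnx1* and *Lhx3*, which specify spinal motor neurons, had 0 reads in all 9 libraries, which allows a mean of up to 0.307 normalized counts. *Lhx4*, the paralog of *Lhx3*, had 429 reads and averaged 44.3 normalized counts. *Isl2*, the paralog of *Isl1*, had 25 reads. The highest normalized counts of the list, those of *Onecut2* with a mean of 518 and the nuclear receptor gene *Esrrg* with 426, belong to genes that many other neurons use. Of the 10 over the minimum, only *Tbx3* had an unadjusted p under 0.05 in limma, with 8.84 ± 2.89 normalized counts in *Nkx2.9*LacZ/+ and 2.62 ± 2.47 in *Nkx2.9*+/+ (unadjusted p = 0.0290, adjusted p = 1.00). The median log2 fold change of the 10 was -0.0076, -0.0046 and -0.02 in the 3 comparisons, in the order given above.

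Of the other genes of acetylcholine handling, 0 passed even an unadjusted threshold in limma. Of 7 enzymes and choline transport genes, 5 were over the minimum, led by choline kinase *Chka* (mean 283) and acetylcholinesterase *Ache* (110). *Ache* had 89.1 ± 9.87 normalized counts in *Nkx2.9*LacZ/LacZ and 126 ± 30.2 in *Nkx2.9*+/+ (SD, n = 3 each), with an unadjusted p of 0.0654 in limma. Of 18 acetylcholine receptor genes, 11 were over the minimum, and the neuronal nicotinic subunits *Chrnb2* (mean 619) and *Chrna4* (mean 544) were highest. *Chrna1* and *Chrnb1*, which are subunits of the muscle receptor, averaged 1.95 and 11.5. The medians of the enzyme list were -0.05, -0.17 and 0.20 on the log2 scale, and those of the receptors 0.06, 0.02 and -0.04.

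Genes of inherited eye movement disorders and oculomotor axon growth were all over the minimum, 11 of 11. The tubulin genes *Tuba1a* (mean 18946) and *Tubb2b* (mean 9705) led, as genes of growing axons in general. In *Nkx2.9*LacZ/+ against *Nkx2.9*+/+, *Sall4* had 14.1 ± 3.74 against 5.55 ± 0.666 normalized counts (log2 fold change 1.18, unadjusted p = 0.0340, adjusted p = 1.00, limma), and the other 10 had an unadjusted p above 0.05 in every comparison. The medians of this list were 0.0038, -0.0042 and 0.02. Of 8 filaments, peptides and trophic receptors of motor neurons, 7 were over the minimum and 0 had an unadjusted p under 0.05. The neurofilament genes *Ina* (mean 2439) and *Nefl* (mean 489) were highest there, while the motor neuron peptide gene *Calca* averaged 5.54, and the medians were -0.04, 0.00015 and -0.06.

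Markers of other cells that share these genes were read in the same way. Among forebrain cholinergic genes, *Lhx8* had 0 reads and *Zic4*, which other regions also use, averaged 78.8. *Gbx1* had 30 reads and *Nkx2-1* had 50, of which 27 were in column 1. The muscle and heart list, where *Tbx20* is also used, had 2 of 6 genes over the minimum, *Acta1* (mean 30.1) and *Myh3* (12.4), and its sum ranged from 40.7 to 81.7 in *Nkx2.9*+/+, 37.5 to 70.1 in *Nkx2.9*LacZ/+ and 36.9 to 66.8 in *Nkx2.9*LacZ/LacZ. In the sensory list *Pou4f1* (mean 294), which the midbrain also expresses, and *Runx1* (7.84) led. The dopaminergic list was led by *Nr4a2* (mean 337) and *Ddc* (152), and *Pitx3* had 21.9 ± 7.15 in *Nkx2.9*LacZ/LacZ against 35.4 ± 1.79 in *Nkx2.9*+/+ (unadjusted p = 0.0341, limma). The serotonergic list was led by *Gata3* (mean 504), which other midbrain neurons also use, and *Slc6a4* (28.4), while *Tph2* averaged 16.9. *Tph2* and *Slc6a4* were lower in *Nkx2.9*LacZ/LacZ than in *Nkx2.9*+/+, with an unadjusted p of 0.00155 and 0.0354 in limma. For *Tph2* the unadjusted limma p was 0.0436 against *Nkx2.9*LacZ/+. In the dorsal midbrain list *Tfap2b* and *Meis2* (mean 505) led, and *Pax7* was lower in *Nkx2.9*LacZ/LacZ than in *Nkx2.9*+/+ (log2 fold change -0.63, unadjusted p = 0.0119, limma). None of these had an adjusted p under 0.05. Their directions rest on the column labels, which the few reads of *Nkx2.9*, counted over the whole gene, do not settle. *Slc10a4*, which monoaminergic neurons also use, had a log2 fold change of 0.0029 in the same comparison.

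The genes most like each member over the 9 libraries, among 12487 with a mean of at least 20, were ranked by Pearson's r of the log2 values, as a description. For *Isl1* they were *Zbtb34* (r = 0.96) and *Ppat* (0.94), for *Slc18a3* *Cd99l2* (0.97) and *Pcyt2* (0.94), and for *Slc5a7* *Ncdn* (0.95) and *Tmem141* (0.94). For *Slc10a4* they were *Ptpn13* (0.95) and *Tex2* (0.93), and for *Prph* *Ptbp1* (0.92) and *Tmem120a* (0.92). The best of 12487 genes reaches a high r over 9 libraries in any case, and all values share the same libraries and size factors. None of the 10 genes is a member or on a list above.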

How the data were processed

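RNA was sequenced from 9 libraries, 3 per labelled genotype, each of 2 pooled E14.5 midbrains. Paired reads of 100 bases were aligned by the authors (Hisat2, GRCm38/mm10) and assigned to genes with featureCounts. Versions, annotation and strand setting are not given in the sources used here. The deposited signal is a normalized count: the authors divided the reads of each library by its DESeq2 size factor. Whole reads were recovered for 100% of 210686 values above 0 (tolerance 1e-06 reads). No row lacked a gene name (0 rows). The authors' 3 tables of DESeq2 comparisons (fold changes, p-values) were not used. Of the identifiers, 51719 matched GENCODE M21 and 193 did not.

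The test was limma 3.58.1 (R 4.3.3; lmFit, then eBayes with a trend) on the log2 of the normalized count plus a pseudocount of 1, with 9 libraries in one two-sided fit, with Benjamini-Hochberg adjustment over 16993 genes with a mean of at least 5. For low genes, log2 fold changes on this scale depend on the pseudocount and on single libraries near 0, and can be smaller or larger than those of the count tools. Members under the minimum came from a fit without it. Exact permutation tests, edgeR 4.0.16 and DESeq2 1.42.0 on the whole reads, pseudocounts of 0.5 and 5, a minimum of 20 or none, 2 genotypes alone, and leaving out each library were also run. The fits were also tried on simulated reads with the same dispersion for every gene. That setting does not cover genes as uneven as *Isl1* and *Prph*. Within genotypes, libraries differed by 4.86 to 13.7 times counting error, so none was a duplicate. Intervals are at 95%. Figures used matplotlib 3.10.9 in Python 3.11.15.

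The members and lists were chosen with earlier results of these data known. The genes named are the members, the 2 highest of each list, list genes with an unadjusted p under 0.05, and the 2 genes most like each member. Other genes (*Dlx* genes, *Gbx2*, *Six3*, *Dbh*, *Slc6a2*, *Th*, *Slc18a2*, *Isl2*, *Chrna1*, *Calca*, *Gm23287*, *Xist* and those with 0 reads) were named after their values were seen. Some genes of the lists are not reported here and were left out of their counts, medians and sums.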

Additional observations from a re-analysis of the deposited data

How the results depend on the processing

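With 3 libraries per genotype and 16 to 552 reads per gene apart from *Phox2a*, small differences in these genes were not detectable. Of 255 alternatives over 21 comparisons of single genes, 215 kept direction and side of the threshold, 5 passed an unadjusted p of 0.05 where the reported value had not, and 35 reversed, 13 of these other than by leaving out a library; the cause was not tested. No alternative gave one of the 7 genes compared an adjusted p under 0.05, and *Phox2a*, with 2 reads, was not compared. No paired analysis was possible because the columns carry no replicate number.

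Over all genes, the counts with an unadjusted p under 0.05 (*Nkx2.9*LacZ/LacZ against *Nkx2.9*+/+, *Nkx2.9*LacZ/+ against *Nkx2.9*+/+, *Nkx2.9*LacZ/LacZ against *Nkx2.9*LacZ/+) were 441, 473 and 449 in limma. They were 1135, 1137 and 1132 with no minimum, where more genes were tested, and 263, 242 and 288 with a minimum of 20, where fewer were. For *Nkx2.9*LacZ/+ against *Nkx2.9*+/+ the count was 264 in DESeq2 and 280 with the libraries of these 2 genotypes alone. Leaving out each library in turn gave 283 (without column 2) to 827 (without column 8), 445 (without column 7) to 933 (without column 4) and 293 (without column 2) to 740 (without column 5). Among the 5 members over the minimum it gave 0 to 0, 0 to 1 and 0 to 1, the 1 being *Prph* without column 4. The pairs of members with an adjusted p under 0.05 were 0 with genotype means subtracted, with a pseudocount of 5 and without column 7.

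In *Nkx2.9*LacZ/LacZ against *Nkx2.9*+/+, *Isl1* turned to -0.011 with a pseudocount of 5, -0.23 in edgeR and -0.23 in DESeq2. In *Nkx2.9*LacZ/+ against *Nkx2.9*+/+, *Isl1* turned to -0.0045, -0.10 and -0.15 in the same settings, and *Prph* to 0.085 in DESeq2. In *Nkx2.9*LacZ/LacZ against *Nkx2.9*LacZ/+, *Isl1* turned to -0.0061, -0.13 and -0.080, and *Prph* to -0.077, -0.69 and -0.94. Leaving out each library in turn moved *Isl1* between -0.68 and 0.58, -0.68 and 0.57, and -0.51 and 0.33 in the 3 comparisons. In *Nkx2.9*LacZ/LacZ against *Nkx2.9*+/+, *Slc18a3* moved between -0.64 and 0.13, *Slc10a4* between -0.13 and 0.20, and *Tbx20* between -0.70 and 0.40. In *Nkx2.9*LacZ/+ against *Nkx2.9*+/+, *Chat* moved between -0.0030 and 1.31, *Prph* between -2.55 and 0.20, and *Tbx20* between -0.99 and 0.11. In *Nkx2.9*LacZ/LacZ against *Nkx2.9*LacZ/+, *Slc5a7* moved between -0.23 and 0.10 and *Prph* between -0.99 and 1.75; the last value, without column 4, had an unadjusted p of 0.0286 and an adjusted p of 1.00 in limma.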
